A study of Zea mays with 109 samples.

Results

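The entries described here are 240 of the 7581 transcripts whose id starts with ZmLnc in the total RNA table of maize inbred line B73, a table with 48367 entries over 26 libraries. An entry was a member if its mean over the 11 leaf libraries was at least 2 TPM, if that mean was at least 4 times its mean over the 15 other libraries, and if it was under 1 TPM in at least 1 library. TPM (a transcript abundance) is a level scaled for transcript length and for the size of the library. The members were therefore chosen by their measured leaf and non-leaf levels, and the gap between leaf and other organs is given below as a description with no test.

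The study profiled 109 samples of B73, the line behind the maize reference genome, with total RNA, ribosome-bound RNA, small RNA and circular RNA tables among its data. All plants were untreated greenhouse plants kept at 25 °C with days of 12 h and nights of 12 h. Each total RNA library is 1 tissue, made from equal amounts of RNA of 3 replicates of 5 to 10 plants, so a tissue has no replicate library. The p-values of the main fit below therefore rest on how unevenly the letters L and N differ from position to position. They do not measure the spread between plants.

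The 8 libraries used for tests are 4 leaf positions, each sampled once as L and once as N. The positions are the base and the tip of the stage 2 leaf at V5 and the first and the topmost leaf at V3, where V numbers are vegetative stages. The labels do not say what the letters L and N stand for. The other 3 leaf libraries carry no letter and are the third leaf at V3, the ear leaf and the husk leaf. The 15 other libraries are 6 of ear, tassel and inflorescence, 3 of shoot apical meristem (SAM), 2 of primary root, 1 of internode, 1 of stem, 1 of embryo and 1 of endosperm.

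The prefix ZmLnc is not spelled out in the sources used here, and no file pairs these ids with a name, a position or a sequence. In plant genomics Lnc usually stands for long non-coding RNA. RNAs of that class carry no long reading frame that is known to be translated, are often scarce, and are known for narrow tissue patterns. Some are known to act on chromatin, to pair with small RNAs or to overlap coding genes, but no such role is given here to any id. The maize leaf itself grows from its base, so that the base holds the youngest cells and the tip the oldest. The first leaf is the oldest leaf of a seedling and the topmost leaf the youngest visible one, while the ear leaf subtends the ear and husk leaves wrap it.

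Because the table pairs no id with a gene name, the labelled tissues could not be checked against defining marker genes. Over the 37069 gene models of the table, the library with the highest rank correlation to each leaf library was another leaf library in 11 of 11 cases. The husk leaf and the ear leaf were nearest to each other, with a Spearman rho of 0.928 across gene models. No pair of libraries held identical values. The listed TPM summed to between 159407 in the husk leaf and 282023 over the leaf libraries, so the listed entries are only part of each library, and read depth is unknown. A single gene model, Zm00001d000417, held 9.57% of the listed TPM in the husk leaf and between 18.7% and 37.7% in the other leaf libraries, so TPM of every other entry moves with it. None of the 240 ids was listed in the ribosome-bound, small RNA, circular RNA or protein interaction tables, which hold no ZmLnc id.

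The members held 6.71% ± 1.55 (SD, n = 11 libraries) of the listed TPM in leaf. Among leaf libraries the share was lowest in the husk leaf with 2.62% and highest in the tip of the stage 2 leaf N with 8.41%. It was 5.41% in the ear leaf and 7.92% in the third leaf, and the other lettered libraries lay between 6.79% and 7.50%. Outside leaf the share was highest in the primary root at V1 with 0.447% and in the stem at V6 with 0.444%. It was 0.165% in the embryo and 0.0473% in the endosperm, and it lay between 0.0680% and 0.132% in the SAM libraries and between 0.0572% and 0.203% in the inflorescence libraries. The leaf and non-leaf shares do not overlap, as the choice of members fixes.

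**Figure D1:**
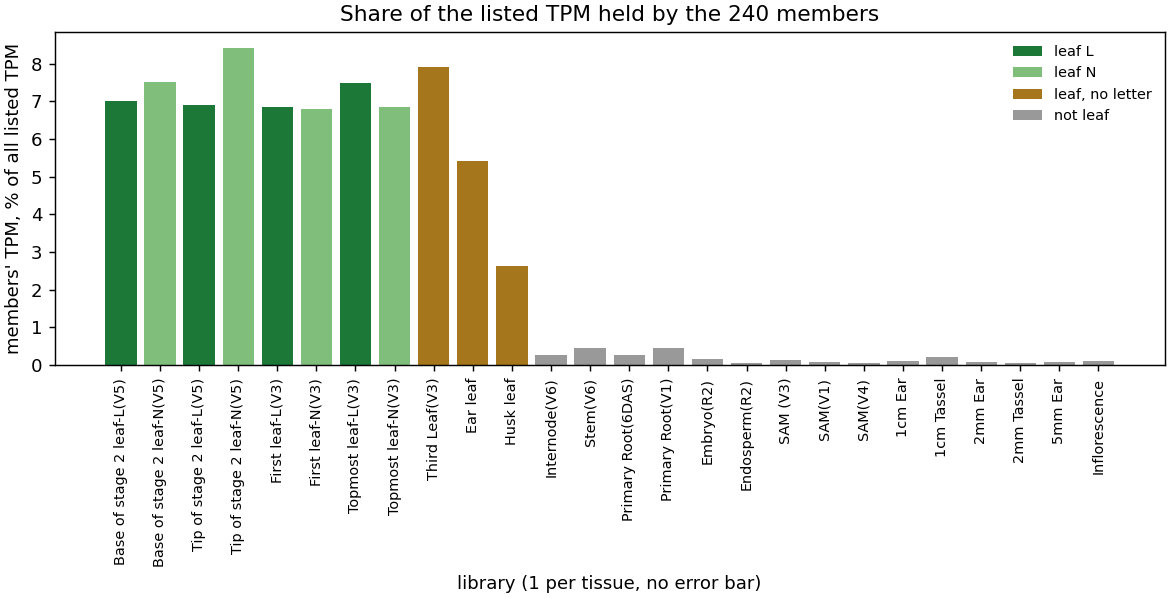
Bars give the members' summed TPM as a percentage of all listed TPM in each of the 26 total RNA libraries, coloured by leaf letter, with 1 library per tissue and no error bar. The husk leaf at 2.62% is the lowest leaf bar and the primary root at V1 at 0.447% the highest bar outside leaf.

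Most members were scarce, and a few held most of the level. The leaf mean ran from 2.02 to 5234 TPM with a median of 6.89 TPM, against a median of 0.376 TPM for the mean over the other organs. A leaf mean of 2 to 5 TPM was found for 97 members, of 5 to 10 TPM for 40, of 10 to 50 TPM for 65, of 50 to 100 TPM for 13 and of at least 100 TPM for 25. The 10 most abundant members held between 49.2% and 73.4% of the members' TPM in each leaf library. The ratio of leaf mean to other mean had a median of 19.9, and it was at least 10 for 158 members and at least 100 for 62.

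The table holds more entries with the same pattern among gene models. Of the 37069 gene models, 1206 met the same rule, which is 3.25%, beside 3.17% of the ZmLnc ids. Of the entries with a leaf mean of at least 2 TPM, the rule was met by 33.7% of 713 ZmLnc ids and by 13.4% of 9009 gene models. Those 1206 gene models had a median leaf mean of 8.51 TPM and a median coefficient of variation over the leaf libraries of 74.9%, beside 80.7% for the members.

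The values nearest to each threshold show where the rule ends. The members with the lowest leaf mean were ZmLnc004315 at 2.02 TPM and ZmLnc003238 at 2.03 TPM, and ZmLnc007258 and ZmLnc004892, both at 1.98 TPM, fell just outside. The lowest ratios inside were 4.03 for ZmLnc001994 and 4.08 for ZmLnc001913, and the highest outside were 3.97 for ZmLnc003626 and 3.93 for ZmLnc005734. The clause on 1 library under 1 TPM left out 12 entries that met both other conditions, and these include some of the most abundant ones. ZmLnc005893, with a leaf mean of 3078 TPM and an other mean of 467 TPM, never went below 4.02 TPM, and ZmLnc005894, with a leaf mean of 1185 TPM, never below 43.4 TPM.

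The most abundant member was ZmLnc006076. Its level was 4048 and 5263 TPM in the base of the stage 2 leaf L and N, 6952 and 7141 TPM in the tip, 7154 and 7009.7 TPM in the first leaf and 3874 and 4671 TPM in the topmost leaf. It was 5893 TPM in the third leaf, 4524 TPM in the ear leaf and 1047 TPM in the husk leaf, and its highest level outside leaf was 70.9 TPM in the stem. All leaf libraries stood far above every other library, and the husk leaf was the lowest leaf. The tip and the first leaf were the highest pair of positions, but neither the tip against base difference of 0.61 ± 0.268 (log2, SE; limma adjusted p = 0.217) nor the first against topmost difference of 0.74 ± 0.268 (limma adjusted p = 0.0690) passed the test.

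Next in order, ZmLnc000556 had a leaf mean of 1165 TPM ± 458 (SD, n = 11), ZmLnc002529 of 1076 TPM ± 524, ZmLnc000552 of 686 TPM ± 283, ZmLnc006187 of 679 TPM ± 630.1 and ZmLnc003142 of 559.5 TPM ± 343. These SDs give the spread over different leaf tissues, and the order among neighbours was not tested. ZmLnc000183 followed with 481 TPM ± 343, ZmLnc003233 with 356 TPM ± 262, ZmLnc006085 with 336 TPM ± 185 and ZmLnc000558 with 310.1 TPM ± 142. Among these 10 members the husk leaf was the lowest leaf library each time, and for ZmLnc003142 it stood at 0.410 TPM, where the next lowest leaf library, the ear leaf, was at 254 TPM.

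Detection differed between the leaf libraries. At least 1 TPM was reached in all 11 leaf libraries by 97 members, and the other 143 were under 1 TPM in at least 1 of them. Of the 35 members under 1 TPM in exactly 1 leaf library, 27 were under it in the husk leaf alone. The number of members at 1 TPM or more was lowest in the husk leaf with 129, was 178 in the ear leaf and was highest in the first leaf L with 215. Outside leaf, 86 members stayed under 1 TPM in all 15 libraries, while 30 reached it in at least 10 of them. ZmLnc002845, ZmLnc002338, ZmLnc007549 and ZmLnc003451 were listed at 0 in all 15. No member had its highest library outside leaf. For 77 members even the lowest leaf library was above the highest other library, and for 109 with the husk leaf set aside. The rule chose the members by this contrast, so these counts follow in part from the choice. Their share over all entries was not counted.

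**Figure D2:**
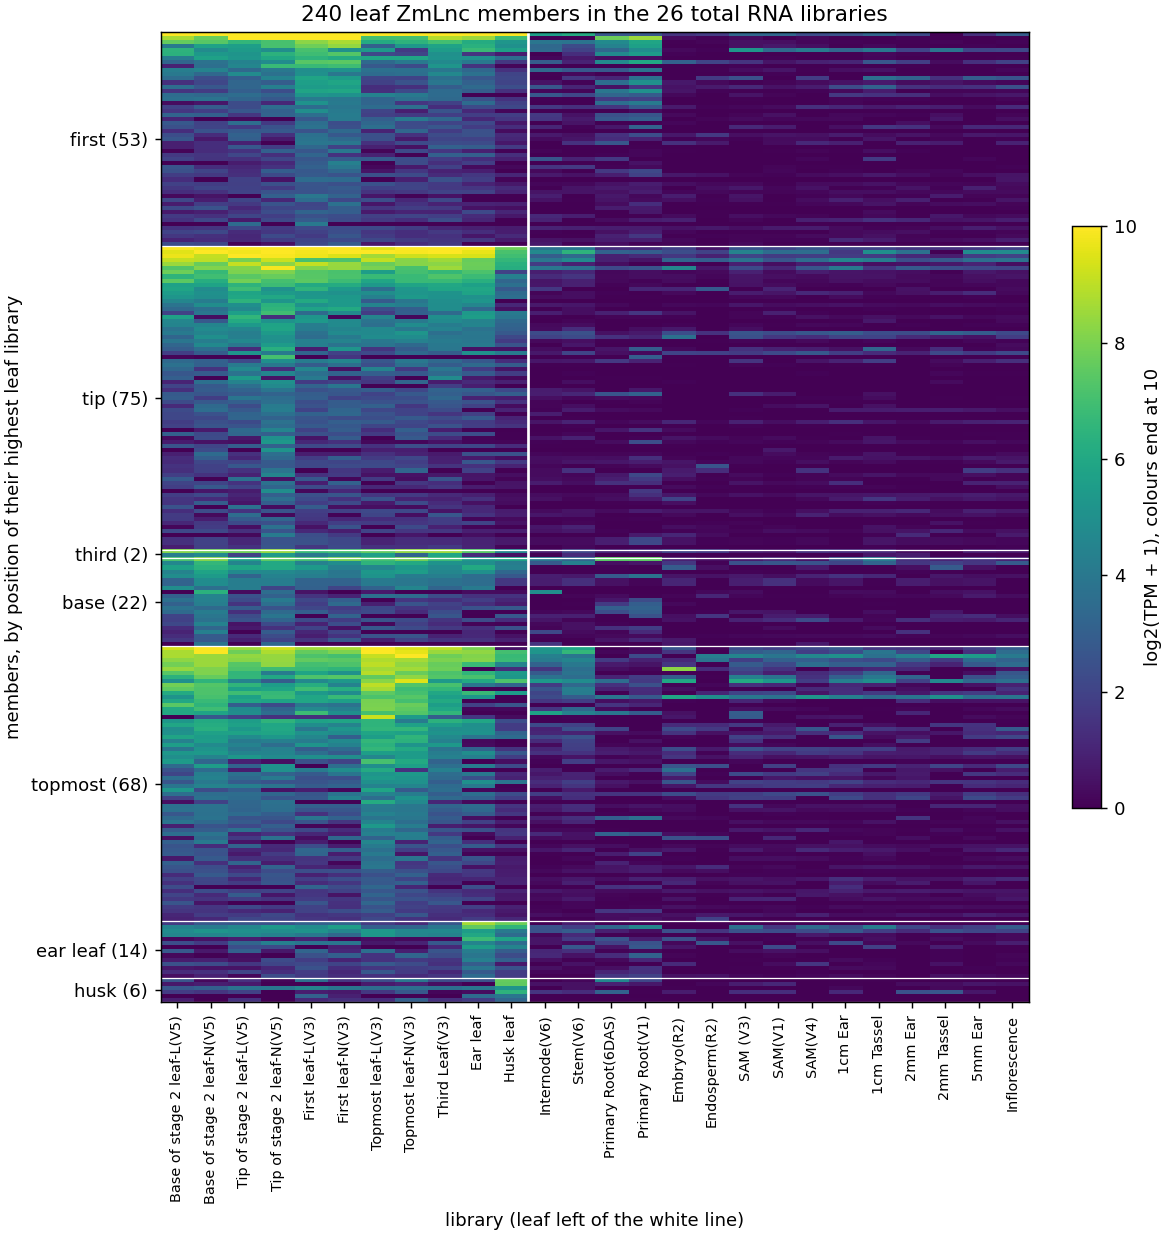
Each line is 1 of the 240 members and each column 1 of the 26 libraries, with colour giving log2(TPM + 1) and members grouped by the position of their highest leaf library. The non-leaf columns are dark apart from scattered cells, most often in root and stem, and the husk leaf column is darker than the other leaf columns.

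A mean over leaf libraries does not say that a member was found across leaves. For 21 members fewer than 6 leaf libraries reached 1 TPM, and for 8 members at most 2 did. ZmLnc005914 was at 188 TPM in the husk leaf and at no more than 0.940 TPM in any other leaf library. ZmLnc001474 was at 131 TPM in the tip of the stage 2 leaf N, at 1.92 TPM in the first leaf N and at or under 0.1 TPM in the other 9 leaf libraries. ZmLnc007371 was at 29.1 TPM in the same tip library and at 1.19 TPM in the first leaf N, with at most 0.680 TPM elsewhere in leaf. Each of these members is in the list through 1 library.

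At the other end, ZmLnc000331 varied least over leaf, with a mean of 6.05 TPM ± 1.35 (SD, n = 11) and a coefficient of variation of 22.3%. Its lowest leaf library was the topmost leaf L at 3.04 TPM and its highest the tip N at 8.14 TPM, and it was above its leaf mean in the husk leaf, with 7.05 TPM. It was not silent outside leaf, with 7.88 TPM in the primary root at V1. ZmLnc002713 with 30.4 TPM ± 8.73 and ZmLnc006398 with 37.1 TPM ± 12.9 were the next steadiest, with coefficients of variation of 28.7% and 34.8%.

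Each leaf library can be read for members chosen without it. With the other 10 leaf libraries used for the rule, between 223 and 251 members were chosen, and the library left out was at least 4 times the non-leaf mean for between 68.1% and 83% of them in the lettered leaves and for 75.9% in the third leaf. In the ear leaf 63.7% of 251 reached that ratio and in the husk leaf 44.0% of 250. Over all ZmLnc ids the same ratio was reached by between 5.62% and 9.77% in these libraries. The non-leaf mean in this ratio was itself used to choose the members, so the reading is only in part independent of the choice. Of the 7581 ZmLnc ids, 713 had a leaf mean of at least 2 TPM, so the share over all of them is no like-for-like background.

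In the husk leaf most members were low. The level was at least 2 times lower than the mean of the other 10 leaf libraries for 205 members (85.4%), beside 24.3% of the 10357 entries with a leaf mean of at least 2 TPM, and the median ratio was 0.177 against 0.769 over those entries. Among the 1206 gene models that met the same rule the share at least 2 times lower was 49.4%. Among the 713 ZmLnc ids with a leaf mean of at least 2 TPM, which include the members, it was 56.1%, with a median ratio of 0.372. The husk leaf was below every other leaf library for 129 members (53.8%, beside 18.7% of the 10357 entries). It was at least 2 times higher than the mean of the others for 11 members (4.58%, beside 9.91%). Members chosen without the husk leaf gave the same picture, with 219 of 250 at least 2 times lower (87.6%). With each other leaf library left out in its place, between 26.5% and 49.8% were at least 2 times lower in that library. With Zm00001d000417 left out and the libraries rescaled, the husk leaf was at least 2 times lower for 200 members (83.3%, beside 17.6% of entries). With the listed sums made equal it was so for 180 (75.0%, beside 12.0%). The husk leaf is 1 library, so this is a difference between libraries with no test, and fewer cells of a type and less RNA per cell cannot be told apart in bulk RNA.

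In the husk leaf 31 members were listed at 0. The most abundant of these were ZmLnc004619, ZmLnc006338 and ZmLnc000282. ZmLnc004619 was at 396 TPM in the topmost leaf L, between 50.6 and 181 TPM in the other lettered leaves and at 98.0 TPM in the third leaf, and it was listed at 0 in the ear leaf too. ZmLnc000282 was likewise listed at 0 in both and between 48.7 and 245 TPM in the other 9 leaf libraries. ZmLnc006338 was listed at 0 in the husk leaf but at 38.5 TPM in the ear leaf, and it was at least at 3.83 TPM in all non-leaf libraries, so the husk leaf was its lowest library of all 26.

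A few members went the other way. Beside ZmLnc005914, ZmLnc005928 was at 88.4 TPM in the husk leaf and at most at 5.67 TPM in the other leaf libraries. ZmLnc006069 was at 199 TPM in the husk leaf and at most at 14.8 TPM in the others. The husk leaf was the highest leaf library for 6 members in all (2.50%, beside 9.07% of the 10357 entries).

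The ear leaf lay between the husk leaf and the others. It was at least 2 times lower than the mean of the other leaf libraries for 113 members (47.1%, beside 18.2% of the 10357 entries) and at least 2 times higher for 18 (7.50%, beside 9.18%). It was below all other leaf libraries for 13 members (5.42%, beside 9.19%) and above all of them for 14 (5.83%, beside 8.54%). Its median ratio was 0.549, where the gene models that met the same rule had 1.01 and were at least 2 times higher in 23.3% of cases. In the ear leaf 21 members were listed at 0, and the most abundant of them was ZmLnc006457, at 394 and 395 TPM in the topmost leaf L and N, 221 TPM in the third leaf and 1.32 TPM in the husk leaf.

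The 3 members with the highest ratio of the ear leaf to the other leaves were high in the husk leaf too. ZmLnc005110 was at 406 TPM in the ear leaf and 222 TPM in the husk leaf, and between 1.29 and 8.28 TPM in the other 9 leaf libraries. ZmLnc002080 was at 113 and 55.1 TPM in these 2 libraries and at most at 0.870 TPM in the others. ZmLnc001803 was at 46.8 and 21.6 TPM and at most at 4.30 TPM in the others. All 3 were named by their ear leaf ratio, so their gap between these 2 leaves and the others follows in part from that choice. ZmLnc002080 and ZmLnc001803 reached the leaf mean of 2 TPM only through these 2 leaves. The share of all entries with such a gap was not counted.

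The third leaf was rarely at either end for the members. It was the highest leaf library for 2 members, ZmLnc004638 and ZmLnc004617 (0.833%, beside 0.0483% of the 10357 entries), and the lowest for 5 (2.08%, beside 25.3%). Among gene models that met the same rule it was the highest for 0% and the lowest for 4.06%, so being rarely the lowest was shared with them. It was at least 2 times lower than the mean of the others for 66 members (27.5%, beside 28.9%), and at least 2 times higher for 6 (2.50%, beside 0.154%). With the median of the others in place of the mean it was at least 2 times lower for 34 members (14.2%, beside 15.8%) and at least 2 times higher for 36 (15.0%, beside 1.84%).

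**Figure D3:**
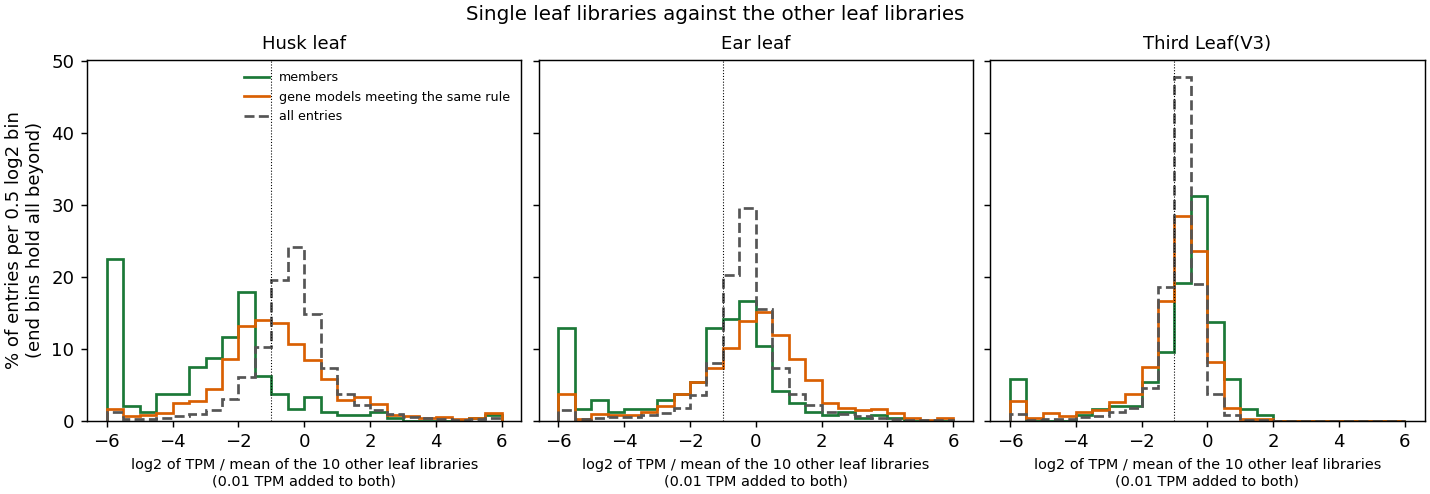
Histograms of the log2 ratio of the husk leaf, the ear leaf and the third leaf to the mean of the 10 other leaf libraries, in percent of the entries of each set, with 0.01 TPM added to both terms; all entries means those with a leaf mean of at least 2 TPM, and the dotted line marks a level 2 times lower. The members lie to the left of the other sets in the husk leaf, where 85.4% of them are at least 2 times lower, and less so in the ear leaf with 47.1%.

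Outside leaf the members' highest library was most often the primary root at V1, for 65 of the 236 members with any level there (27.5%), and next the stem at V6, for 55 (23.3%). Among gene models that met the same rule these libraries came first in 23% and 15.8% of cases, and among all ZmLnc ids with a leaf mean of at least 2 TPM in 22.6% and 8.32%. For 29 members (12.1%) the highest non-leaf library was above the leaf mean, beside 8.87% of the gene models that met the same rule. ZmLnc001372 went farthest above it, with 29.5 TPM in the internode against a leaf mean of 8.74 TPM, which came from 83.6 TPM in the base of the stage 2 leaf N and 10.8 TPM in the tip N. ZmLnc004151 and ZmLnc004152 were next, with 32.7 and 32.5 TPM in the primary root at V1 against leaf means of 14.3 and 14.6 TPM.

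The letters L and N were compared over the 8 lettered libraries with limma on log2(TPM + 1), with the leaf position as a block and all 16238 entries that reached 1 TPM in 2 or more of these libraries in 1 fit. Of the 240 members, 237 entered the fit. ZmLnc002080, ZmLnc005914 and ZmLnc007549 did not. A call needed an adjusted p (Benjamini-Hochberg) under 0.05 and a log2 difference of at least 1. Because 1 TPM is added, the fitted difference is smaller than the true change where levels are low. The rule did not name the letters or positions, but the members' levels in these libraries were part of the choice through the leaf mean. A member could therefore pass through the letter or position where it was high. ZmLnc000935, for example, had a mean of 0.318 TPM in L and 11.9 TPM in N. The shares called below are thus not independent of the choice of members.

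Between L and N, 39 of the 237 members were called (16.5%), beside 6.69% of all entries. Of these 18 were higher in L (background 3.49%) and 21 higher in N (background 3.21%). Among gene models that met the same rule 26.8% were called, with 220 higher in L and 93 higher in N, and among the other ZmLnc ids 4.54% of 1322. The direction was the same at all 4 positions for 17 of the 18 and for 20 of the 21, the exceptions being ZmLnc003310 and ZmLnc006633, which were listed at 0 in both letters at 1 position. All 4 L libraries lay above all 4 N libraries for 8 members (background 3.42%) and all 4 N above all 4 L for 8 (background 8.71%). The median difference of L minus N was -0.21 over all entries and -0.17 over the members. With quantile normalisation, which brought the median of all entries to -0.04, 19 members were called higher in L and 13 higher in N, beside 6.02% of all entries. The samples of a position pair, and without the position as a block 10 members were called, beside 2.59% of all entries.

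The clearest difference between the letters was that of ZmLnc002614. In L it was at 51.5 TPM in the base, 95.8 TPM in the tip, 35.7 TPM in the first leaf and 21.3 TPM in the topmost leaf, and in N at 0.310, 1.54, 0.140 and 0.170 TPM at the same positions. Every L library was above every N library, and the fitted difference was 4.96 ± 0.201 (log2, SE; limma adjusted p = 0.000510). The leaves without a letter stood with the L libraries, at 30.2 TPM in the third leaf, 46.1 TPM in the ear leaf and 14.3 TPM in the husk leaf. Outside leaf it was at most at 0.400 TPM.

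ZmLnc006858 was at 5.93, 7.37, 8.52 and 11.1 TPM in the L base, tip, first and topmost leaf and at 0.600, 0.550, 1.18 and 0.790 TPM in the same N leaves. The groups did not overlap and the difference was 2.36 ± 0.139 (log2, SE; limma adjusted p = 0.00140), and its level in the ear leaf, 18.1 TPM, was above all lettered leaves. ZmLnc000905 was at 7.24, 42.9, 15.9 and 2.62 TPM in L and at 0.0300, 0.440, 0.430 and 0.0200 TPM in N, a difference of 3.33 ± 0.466 (limma adjusted p = 0.00845). ZmLnc000382 was at 9.19, 24.6, 23.3 and 21.5 TPM in L and at 1.83, 1.44, 0.360 and 2.16 TPM in N, a difference of 3.06 ± 0.359 (limma adjusted p = 0.00603). Neither of these members overlapped between the letters, and in the ear leaf and the husk leaf ZmLnc000905 was below all L libraries, with 0.650 and 0.190 TPM. ZmLnc002590 ran from 2.37 to 12.2 TPM in L and from 0.0300 to 0.350 TPM in N, a difference of 2.50 ± 0.300 (limma adjusted p = 0.00629). ZmLnc002203 was higher in L at each position, but its range over positions in L, 0.730 to 57.3 TPM, overlapped that in N, 0.120 to 5.95 TPM, and its difference was 2.29 ± 0.413 (limma adjusted p = 0.0147). That call was lost without the block (limma adjusted p = 0.317) and narrowly without the base L (adjusted p = 0.0521) or the base N (adjusted p = 0.0501).

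Among the members higher in N, ZmLnc000935 and ZmLnc000936 carry adjacent numbers and had the same profile, with a Pearson r of 0.996 over the 11 leaf libraries. ZmLnc000935 was at 3.91, 31.2, 6.59 and 6.05 TPM in the N base, tip, first and topmost leaf and at 0.220, 0.550, 0.5 and 0 TPM in L, a difference of -2.89 ± 0.382 for L minus N (log2, SE; limma adjusted p = 0.00753). ZmLnc000936 was at 2.42, 12.2, 4.91 and 3.71 TPM in N and at 0.130, 0.330, 0.410 and 0 TPM in L, a difference of -2.30 ± 0.271 (limma adjusted p = 0.00606). For both, all N libraries were above all L libraries with the highest in the tip N, and the third leaf lay between the letters at 1.34 and 0.880 TPM.

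ZmLnc001326 was at 10.1, 12.1, 9.54 and 17.7 TPM in the N base, tip, first and topmost leaf and at 0.370, 2.29, 0.290 and 7.95 TPM in L, a difference of -2.28 ± 0.348 (limma adjusted p = 0.0104). ZmLnc001650 was at 20.8 TPM in the base N and between 2.70 and 4.17 TPM in the other N libraries, and between 0.170 and 3.44 TPM in L, a difference of -1.77 ± 0.159 (limma adjusted p = 0.00384). ZmLnc001326 had no overlap between the letters, while for ZmLnc001650 the base L reached the range of N. ZmLnc006840 and ZmLnc007233 were higher in N at every position, by -2.88 ± 0.784 (limma adjusted p = 0.0412) and -2.08 ± 0.435 (limma adjusted p = 0.0210), but both calls were weak. That of ZmLnc006840 was lost without any 1 of the first, tip or topmost leaf libraries of either letter (limma adjusted p between 0.0616 and 0.124), and that of ZmLnc007233 without any 1 of the base or tip libraries (adjusted p between 0.0555 and 0.0643).

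**Figure D4:**
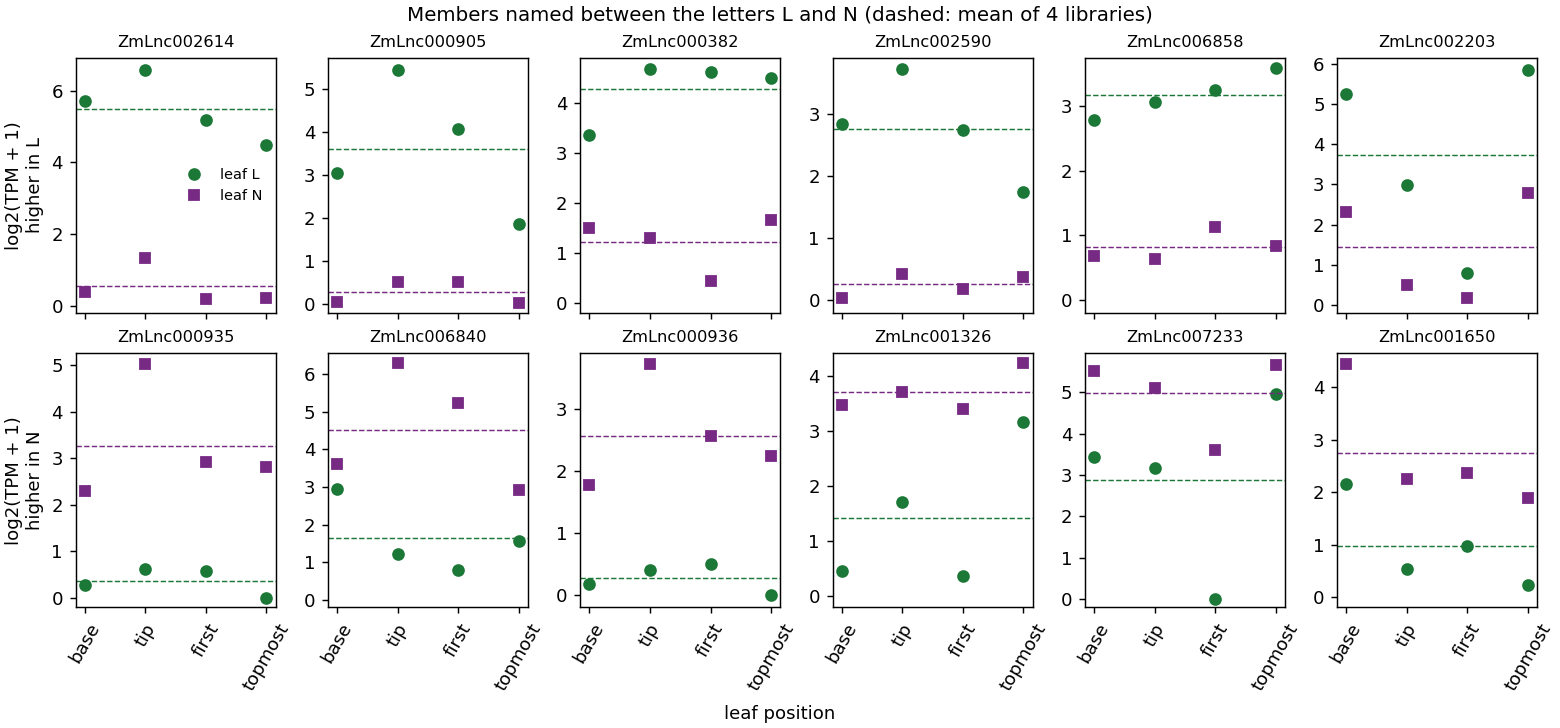
Points give log2(TPM + 1) of the 12 named members at 4 leaf positions in L (circles) and N (squares), with the mean of the 4 libraries of each letter as a dashed line; the upper panels are higher in L and the lower ones in N. In every panel the letter with the higher mean is higher at each position, as for ZmLnc002614 with a difference of 4.96 on the log2 scale.

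The leaves without a letter took no part in this fit. For the 39 members called between the letters, the third leaf lay on the side of L, as judged by the midpoint between the mean log2 levels of L and N, in 34 cases (87.2%). These were 16 of the 18 members higher in L and 18 of the 21 higher in N. Over all 1087 entries called, the third leaf lay on the side of L in 82.1%. The ear leaf did so for 24 of the 39 members (61.5%, beside 73.7% of all entries called) and the husk leaf for 22 (56.4%, beside 53.6%). Of the 18 members higher in L, the ear leaf lay on the side of L for 7 (38.9%, beside 70.5% of all such entries). The husk leaf did so for 3 (16.7%, beside 40.1%). Of the 21 higher in N, the ear leaf did so for 17 (81.0%, beside 77.2%) and the husk leaf for 19 (90.5%, beside 68.3%). In these 2 leaves the members were thus mostly on the side of the lower letter. Over all entries called this held for the husk leaf, while the ear leaf was mostly on the side of L in both directions.

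The first and the topmost leaf at V3 differed in many members. Of the 237 members, 86 were called (36.3%), beside 20.8% of all entries. Of these 41 were higher in the first leaf (background 12.0%) and 45 higher in the topmost leaf (background 8.86%). Among gene models that met the same rule 50.3% were called. The median difference of first minus topmost was 0.19 over the members and 0.29 over all entries. Leaving out the first leaf L or the first leaf N leaves 1 library on that side, and fewer members were then called. The share of all entries in those fits is not given here.

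ZmLnc006187 was the most abundant member among those named as higher in the first leaf. It was at 1843 and 1622 TPM in the first leaf L and N and at 126 and 129.5 TPM in the topmost leaf, a difference of 3.75 ± 0.337 (log2, SE; limma adjusted p = 0.00199). It was higher in the tip than in the base as well, with 1066 and 1132 TPM against 409 and 206 TPM, and its highest level outside leaf was 358 TPM in the primary root at V1. L and N agreed closely at 3 of its 4 positions and differed most in the base.

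ZmLnc003354 was at 117 and 158 TPM in the first leaf L and N and at 3.68 and 3.30 TPM in the topmost leaf, a difference of 4.93 ± 0.524 (limma adjusted p = 0.00259). ZmLnc004151 was at 57.0 and 60.3 TPM against 1.56 and 3.8 TPM, a difference of 4.09 ± 0.354 (limma adjusted p = 0.00182), and was at most at 10.3 TPM in the other leaf libraries. ZmLnc006648 was at 43.9 and 46.0 TPM against 1.49 and 1.65 TPM, a difference of 4.16 ± 0.412 (limma adjusted p = 0.00233). In these 3 members both first leaf values were above all other leaf libraries. ZmLnc000863 was at 220.1 and 332 TPM against 7.31 and 39.6 TPM, a difference of 3.88 ± 0.399 (limma adjusted p = 0.00248). ZmLnc002519 was at 107 and 119 TPM against 5.90 and 3.91 TPM, a difference of 4.29 ± 0.796 (limma adjusted p = 0.01), and it was nearly as high in the tip N, at 108 TPM, but not in the base L, at 0.930 TPM. Its call was lost without the first leaf L (limma adjusted p = 0.0649).

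Higher in the topmost leaf was ZmLnc002053, at 252 and 211 TPM in the topmost leaf L and N against 14.5 and 12.7 TPM in the first leaf, a difference of -3.99 ± 0.258 for first minus topmost (log2, SE; limma adjusted p = 0.00103). ZmLnc001201 was at 134 and 65.7 TPM against 4.38 and 2.95 TPM, a difference of -4.36 ± 0.443 (limma adjusted p = 0.00242). ZmLnc005114 was at 70.8 and 24.8 TPM against 0 and 0.0300 TPM, a difference of -5.41 ± 0.639 (limma adjusted p = 0.00319). All 3 were low in the ear leaf and the husk leaf, where the highest value was 5.17 TPM, for ZmLnc002053 in the husk leaf. ZmLnc001108 was at 41.4 and 17.9 TPM against 0.0900 and 0.150 TPM, a difference of -4.66 ± 0.629 (limma adjusted p = 0.00432). ZmLnc006059 was at 297 and 725 TPM against 24.1 and 39.5 TPM, a difference of -3.87 ± 0.723 (limma adjusted p = 0.0102), and unlike the others it was at 148 TPM in the husk leaf. Its call was lost without the first leaf L (adjusted p = 0.0617), the first leaf N (0.0571) or the topmost leaf N (0.0559). ZmLnc006904 had the largest fitted difference among the named members, -6.01 ± 1.33 (limma adjusted p = 0.0162), but its topmost leaf values of 591 TPM in L and 44.4 TPM in N were far apart. Its call was lost without the first leaf L (adjusted p = 0.0837), the first leaf N (0.0753) or the topmost leaf L (0.0688), and without the last the difference was -3.8.

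Members called for the first leaf and for the topmost leaf differed in where else they were found. Among the members higher in the first leaf with any level outside leaf, the highest other library was the primary root at V1 for 25 of 40 (62.5%) and the stem at V6 for 4 (10.0%). Among the members higher in the topmost leaf it was the primary root at V1 for 1 of 45 (2.22%) and the stem at V6 for 17 (37.8%). Gene models that met the same rule had the same order, with 44.0% and 3.60% for the first leaf and 2.67% and 32.9% for the topmost leaf. No test was run on these shares.

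Between the tip and the base of the stage 2 leaf, 16 of the 237 members were called (6.75%), beside 3.01% of all entries. Of these 8 were higher at the tip (background 1.02%) and 8 higher at the base (background 2.00%). Among gene models that met the same rule 7.97% were called. The median difference of tip minus base was 0.24 over the members and -0.17 over all entries. With quantile normalisation 12 members were called higher at the tip and 7 at the base, beside 3.42% of all entries. These calls rest on few libraries. The share of all entries called is not given beside the counts that follow, so they do not show whether the members lost more calls than all entries did. Without the base L 3 members were called, all among the 16, and without the base N 6, all among them. Without the tip N 4 were called, of which 3 were among the 16, and without the tip L 12, of which 4 were. Without the first leaf L or N it was 9 each with 8 among the 16, and without the topmost leaf L or N 12 each with 10 among them. Of the 12 named members ZmLnc003931 and ZmLnc002053 alone were called whichever library was left out, and the call of ZmLnc003931 was lost with no letter in the fit (limma adjusted p = 0.210).

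ZmLnc003931 was at 48.6 and 120.5 TPM in the tip L and N and at 2.97 and 14.8 TPM in the base, a difference of 3.29 ± 0.234 (log2, SE; limma adjusted p = 0.00643). N was above L at all 4 positions, and the ear leaf, at 41.8 TPM, and the husk leaf, at 16.5 TPM, were above most of the V3 leaves. ZmLnc002053, described above for the topmost leaf, was at 172 and 89.9 TPM in the base against 6.91 and 3.71 TPM in the tip, a difference of -4.36 ± 0.258 (limma adjusted p = 0.00402). In both members the tip and base values did not overlap.

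The other members named at the tip were ZmLnc005820, with 9.73 and 21.8 TPM in the tip against 0.01 and 0.640 TPM in the base, ZmLnc002338, with 11.7 and 24.9 TPM against 3.11 and 6.00 TPM, ZmLnc007471, with 6.17 and 8.69 TPM against 2.26 and 0.790 TPM, and ZmLnc001803, with 4.30 and 3.77 TPM against 0 in both base libraries. ZmLnc002338 was listed at 0 in both topmost leaves, in the husk leaf and in every library outside leaf. At the base ZmLnc001201 was at 44.0 and 8.58 TPM against 0.880 and 0.330 TPM, ZmLnc003087 at 11.2 and 13.3 TPM against 0.990 and 1.68 TPM, and ZmLnc006457 at 344 and 268 TPM against 147 and 115 TPM. ZmLnc003087 was highest in the topmost leaf, at 20.3 and 18.9 TPM, as ZmLnc001201 and ZmLnc006457 were. ZmLnc004315 was not, with 4.09 and 3.47 TPM in the base, 0.0800 and 0.380 TPM in the tip and its highest level, 6.47 TPM, in the first leaf N. Nor was ZmLnc001650, named above as higher in N, which was called higher at the base as well, with a tip minus base difference of -1.91 on the log2 scale and base N far above base L.

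**Figure D5:**
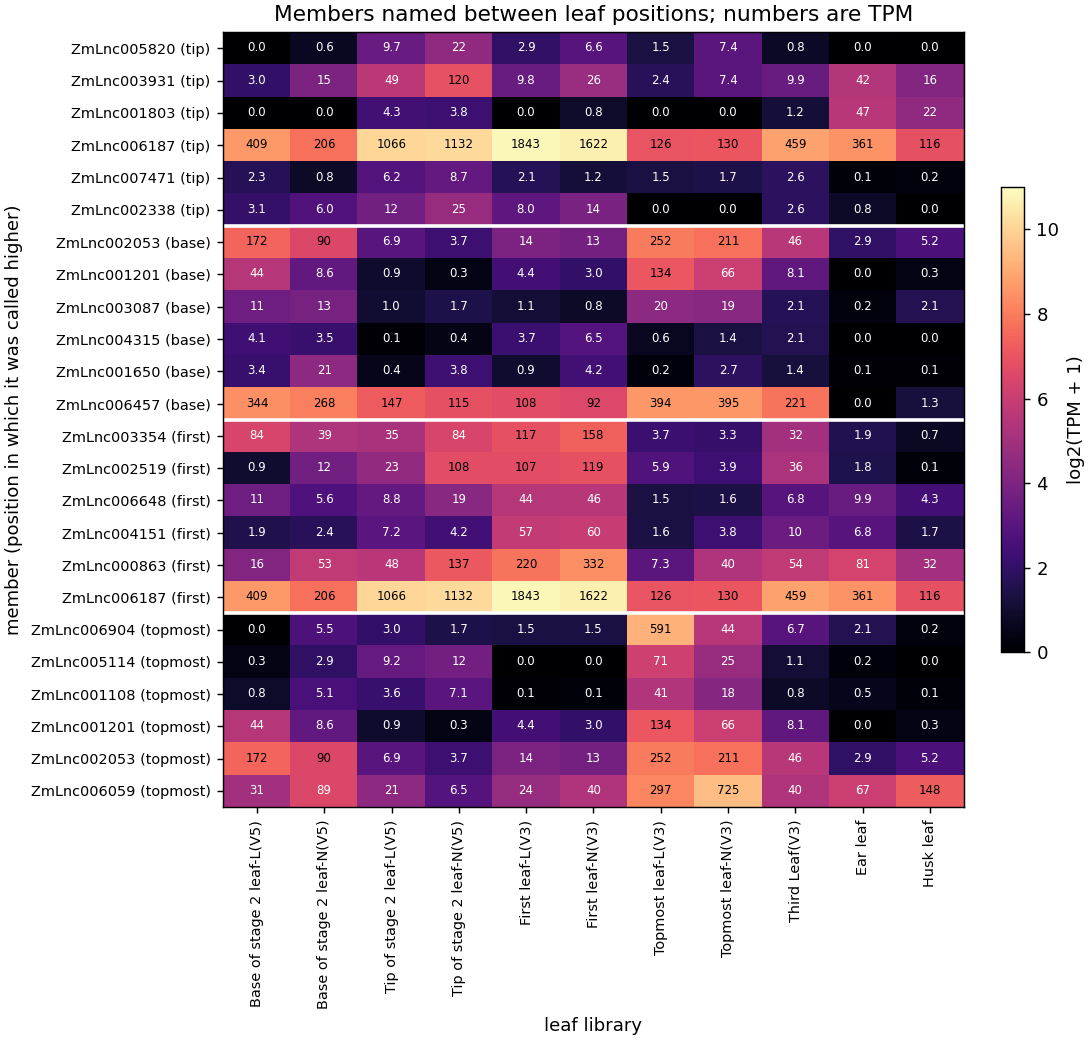
Colour gives log2(TPM + 1) and the printed numbers TPM in the 11 leaf libraries for the members named as higher at the tip, the base, the first leaf or the topmost leaf, of which some are named under 2 positions. The base and topmost leaf columns are bright together for ZmLnc002053, ZmLnc001201 and ZmLnc006457, and the tip and first leaf columns for ZmLnc006187 and ZmLnc002519.

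The tip against base and the first against topmost comparisons share no library. Of the 8 members called higher at the base, 5 were also called higher in the topmost leaf, and of the 8 called higher at the tip, 4 were also called higher in the first leaf. These shares of 62.5% and 50% stand beside 38.6% and 47.3% over all entries and 51.6% and 61.3% over the gene models that met the same rule. The 5 were ZmLnc002053, ZmLnc001201, ZmLnc003087, ZmLnc006457 and ZmLnc006390, and the 4 were ZmLnc006187, ZmLnc003931, ZmLnc002338 and ZmLnc001492. In ZmLnc004315 both calls went opposite ways, with -1.97 for tip minus base and 1.59 for first minus topmost. Of the 86 members called between the first and the topmost leaf, 61 had the same sign between tip and base (70.9%), beside 60.7% of all entries called and 66.3% of the gene models that met the same rule. The Pearson r between the log2 differences was 0.45 across the 237 members and 0.23 across all entries. Genes are not independent replicates, and the comparisons share the fit and its letter term.

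Over the 4 positions together, 107 of the 237 members were called by limma's F test with a range of position means of at least 1 on the log2 scale (45.1%), beside 30.2% of all entries. Among gene models that met the same rule it was 58.5% and among the other ZmLnc ids 28.9%. The median range over the 4 positions was 1.52 for the members and 0.81 for all entries. Among the 107 the highest position was the topmost leaf for 45, the first leaf for 39, the tip for 18 and the base for 5, and the lowest was the first leaf for 32, the topmost leaf for 31, the base for 24 and the tip for 20. In these counts a V3 leaf was most often the highest position and the base rarely, but the V3 leaves were also most often the lowest. No such counts over all entries stand beside these, so they are not read as a trait of the members. Over all entries, too, first against topmost gave more calls (20.8%) than tip against base (3.01%). Fewer members were called without the first leaf L or the first leaf N, and the share of all entries in those fits is not given here. Of the 39 members called between the letters 20 were also called over positions, which is 51.3% of the former and 18.7% of the latter. At least 1 of the 4 tests called 135 members, and 102 tested members were called by none. The share of all entries called by at least 1 test was not counted.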

How the data were processed

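Per the labels' protocols, total RNA of 26 tissues of untreated B73 plants was sequenced, 1 library per tissue. The authors deposited 1 table of TPM values; the submitters' processing notes name HISAT, StringTie, Bowtie 1.1.2, RSEM, SAMtools 1.9, cutadapt 1.9.1 and build B73 RefGen_v4, without saying which made the table. The sources used here do not state how multi-mapping or antisense reads were assigned, so levels of overlapping or near-identical transcripts are uncertain. One line of the table held 2 records and was split. The authors also deposited ribosome-bound TPM values, a small RNA table whose values read as log2 values, a circular RNA table of signal values that are CPM per the labels, and protein pairs; these were read for their ids only. Read depth is unknown, and 1 library per tissue limits precision.

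The members and lists were chosen with earlier results of these data known. TPM was transformed to log2(TPM + 1) from the deposited values. limma 3.58.1 in R 4.3.3 fitted position and letter over the 8 lettered leaf libraries (residual degrees of freedom 3, prior 2.95; moderated test with a mean-variance trend), with entries at 1 TPM or more in at least 2 libraries and Benjamini-Hochberg adjustment over all 16238. The position pairs L with N by the labels, and deviations of paired libraries from their letter's mean correlated at 0.577 (base), 0.544 (tip), 0.853 (first) and 0.756 (topmost). Named members are the 10 highest leaf means, the 6 called members with the largest difference per direction and contrast, the 3 lowest and 3 highest in the husk leaf and the ear leaf relative to the other leaves (ties at 0 by leaf mean), the 3 at either end of variation over leaf, the 3 with the highest non-leaf library relative to their leaf mean, and those nearest each threshold. ZmLnc002845, ZmLnc003451, ZmLnc007549, ZmLnc004638, ZmLnc004617, ZmLnc005893, ZmLnc005894, ZmLnc003310, ZmLnc006633, ZmLnc006390 and ZmLnc001492 were named after their values were seen. Tested on simulated data with 100 entries changed by 1.5 and 100 by 3.0 on the log2 scale, the fit recovered 76 and 92 for L against N, 71 and 87 for tip against base and 56 and 92 for first against topmost. Alternatives were another pseudocount (0.1), filters, quantile normalisation, Zm00001d000417 left out and the rest rescaled, no trend, no block, no letter, and each library left out.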

Additional observations from a re-analysis of the deposited data

Results flagged for a closer look

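Among the 12 members named between the letters, the 4 libraries of each letter were searched for 1 library far from the others. The search used TPM, and its limit marks about 1 in 20 groups by chance only where values are normally distributed. TPM over 4 different leaf positions need not be, so the chance rate here is unknown. 3 groups were marked, all in N. ZmLnc002614 was at 1.54 TPM in the tip N and between 0.140 and 0.310 TPM in the other N libraries, all far below the L libraries. ZmLnc000935 was at 31.2 TPM in the tip N and between 3.91 and 6.59 TPM in the other N libraries. ZmLnc001650 was at 20.8 TPM in the base N and between 2.70 and 4.17 TPM in the others. In ZmLnc000935 and ZmLnc001650 the library that stood apart raised the mean of the letter that was already higher, and in both the call remained without it.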

How the results depend on the processing

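Every named difference kept its direction under each alternative run. For L against N the share of all entries called fell too, from 6.69% to 2.59% without the block and 2.42% with no filter. Other counts of calls below stand without that share, so they do not show whether the members lost more calls than all entries did. Between L and N 39 members were called, 10 without the position as a block that pairs the letters, 25 with no filter on low values and between 26 and 41 without any 1 library; the block also decided the calls of ZmLnc002203, ZmLnc006840, ZmLnc001326, ZmLnc007233 and ZmLnc001650. Between tip and base 16 were called, 25 with a pseudocount of 0.1, 4 with no filter, 3 with no letter in the fit and between 3 and 12 without any 1 library; with no letter ZmLnc001803, ZmLnc002053 and ZmLnc003087 alone of the named members were called, and with no filter ZmLnc005820, ZmLnc003931, ZmLnc002053 and ZmLnc003087. Between the first and the topmost leaf 86 were called, 54 with no letter and between 50 and 93 without any 1 library, and over the 4 positions 107, 57 with no filter, 39 with no letter and between 55 and 106 without any 1 library. Fits that lose 1 library assume that the library left alone at a position varies like the others. Without Zm00001d000417 the members' mean share of the listed TPM was 9.96% in L and 10.4% in N, in place of 7.07% and 7.39%. In the third leaf 66 members were at least 2 times lower than the other leaves, 34 with the median of the others and 43 without Zm00001d000417 (chosen after seeing the data, as were the equal listed sums). The rule itself gave between 223 and 251 members without any 1 leaf library, 204 with the median over leaf libraries, of which 174 were shared, 179 at 8 times the other mean and 252 without the clause on 1 TPM.

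Read depth is unknown, so no lower limit of detection can be given for a member listed at 0. Each tissue is 1 library of mixed plants, so no value here measures the spread between plants, and the tip against base calls depend most on single libraries.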

Other observations

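Members with neighbouring id numbers often shared a profile. Of the 240 members, 71 had a member next to them in number, in 41 adjacent pairs, and 82 of the 480 neighbouring numbers were members (17.1%), beside 3.17% of all ZmLnc ids. The median Pearson r of an adjacent pair over the 11 leaf libraries was 0.882, against 0.256 over all 28680 pairs of members, and r was at least 0.9 in 18 of the 41 (43.9%), against 0.872% of all pairs. The longest run was ZmLnc007441 to ZmLnc007446, with a median r of 0.738 between neighbours. Several of the most abundant members lie in such runs, among them ZmLnc000552 and ZmLnc000553 (r 0.985) and ZmLnc000555 to ZmLnc000558 (median r 0.964). ZmLnc004151 and ZmLnc004152, both high in the first leaf and in the primary root at V1, had an r of 0.988. ZmLnc006058 and ZmLnc006059 went against this, with an r of -0.525. ZmLnc004083 and ZmLnc004084 had an r of 1.00 and the same values in the lettered leaves, and both were called higher in the first leaf. ZmLnc000163 and ZmLnc000166, which are not adjacent in number, also had the same values in the lettered leaves. Each id of these pairs is counted as a separate member throughout. Between the first and the topmost leaf at least 1 member of 12 adjacent pairs was called, both in 8, and both in the same direction in 7. Between the letters at least 1 member of 4 adjacent pairs was called, and both in the same direction in 3. These correlations share the libraries and are given without a p. The files used here do not say how the numbers were assigned, so whether neighbours in number are neighbours in the genome, or parts of 1 transcript, was not tested.

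Whether L against N differed between the V5 and the V3 positions was asked after the data had been seen, with an interaction term in limma. It called 0 of the 237 members and 0 of the 16238 entries, while 48 members (20.3%) and 1613 entries (9.93%) had an unadjusted p under 0.05. On simulated data with a change of 3.0 on the log2 scale, the same fit recovered 138 of 200 changed entries. Smaller changes were not simulated, so 0 calls does not show that the letters differed alike at V5 and V3. The lowest p among members was that of ZmLnc003238, with -3.58 ± 0.234 (log2, SE; limma adjusted p = 0.166), a member that reached 1 TPM in 2 leaf libraries only and was highest in the base of the stage 2 leaf N at 13.2 TPM.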
